A study of Mus musculus with 12 samples.

Results

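Hippocampal RNA of 6 adult male C57BL/6 mice (C57BL/6J in the study's methods) that had been separated from their dam as pups was compared with that of 6 mice that had not, with prenatal ethanol as a second factor. The separated mice are the stress and the ethanol + stress groups, the others are the control and ethanol groups, and each group holds 3 mice, so that all 12 libraries of the study enter the comparison and each prenatal arm is split evenly. Stress pups were taken from the dam and littermates and kept alone from postnatal day 2 to 14, daily for 3 h. Dams of both ethanol groups had 10% ethanol beside water to drink, freely and into the days of separation, and the other dams had water only. All mice were killed at postnatal day 70 with carbon dioxide, and whole hippocampus was taken. The study also used these mice for behavioural tests, and the time between a test and death is not given in the sources used here. A part of each litter was chosen for stress, but the labels do not say which mice were littermates, so mice across the groups may share a dam. The treatment joins maternal absence with isolation, and only males were sequenced.

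Maternal separation in the first postnatal weeks is widely used as a model of early life stress. In adult animals it is studied through the hypothalamic-pituitary-adrenal axis, in which hypothalamic CRH drives the release of glucocorticoids, and through the hippocampus, which holds both corticosteroid receptors. Neurons also carry immediate early genes, whose transcription starts within minutes of synaptic activity or a stressor, mostly through CREB and serum response factor, and whose products include the AP-1, Egr and Nr4a transcription factors.

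The values are on the scale of TPM, a measure of abundance corrected for length, and were summed over the transcripts of each gene. Their sums ran from 889222 to 1173650 per library, and the low values gave depths of 12103000 to 15033000 read pairs. Of the genes, 14455 had a mean of 1 or more and were tested as log2(value + 0.5) with limma. A log2 difference below is separated minus not separated mice, adjusted for prenatal ethanol, is given with its standard error, and understates the change of low genes. A gene was called at an unadjusted p under 0.01, two-sided. For named genes an exact permutation p, from all 400 exchanges of the separation labels within the prenatal arms, is added, of which 0.005 is the smallest possible. The labels do not say more of how replicates were taken, so p values measure the spread between these 12 mice.

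The separation difference was small across the transcriptome. Of the tested genes 67 were called, which is 0.464%, where 145 would be called by chance at this threshold. Higher values in separated mice were found for 29 genes (0.201%) and lower values for 38 (0.263%). After Benjamini-Hochberg adjustment no gene passed 0.05, the lowest adjusted p of limma was 0.880, and 425 genes (2.94%) had an unadjusted p under 0.05. Of the calls 43.3% were higher, a share that was 32.6% of 86 calls when each library's trend over gene length was removed, and 44 genes were called without ethanol replicate 3. The values of all 6 separated mice lay above those of all 6 others in 5 genes (0.0346%) and below them in 10 (0.0692%). In this fit none of the genes named below is therefore shown to differ once the number of genes is taken into account.

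Of 17 tested immediate early genes, 5 were called lower in separated mice and none higher, beside 0.263% of all genes called lower, and 14 of the 17 had a difference below 0 and 3 above. The list was chosen with earlier results of these data known, so the count is a description and not independent support. The count of 5 was 1 to 6 without 1 library, 1 in each prenatal arm alone and 0 with the level of choroid plexus markers as a covariate, as described below. The median difference of the members was -0.39 on the log2 scale, where the median of all genes was 0.0004. At an unadjusted p under 0.05, 7 members were lower, beside 1.29% of all genes. The called members were Dusp1, Nr4a1, Btg2, Fos and Junb, and as bulk tissue was used, fewer cells that hold these RNAs and less RNA per cell cannot be told apart.

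The proximal promoters of these 5 genes, called in the same direction, are shown because CREB, named above, binds near the start of many immediate early genes. The sequences are the 250 bases before the RefSeq start in GRCm38.p6, from 5′ to 3′ on the strand of the gene, with each TGACG or its reverse complement in capitals, the core letters of the cAMP response element, CRE.
Fos, chr12:85473640-85473889, plus strand: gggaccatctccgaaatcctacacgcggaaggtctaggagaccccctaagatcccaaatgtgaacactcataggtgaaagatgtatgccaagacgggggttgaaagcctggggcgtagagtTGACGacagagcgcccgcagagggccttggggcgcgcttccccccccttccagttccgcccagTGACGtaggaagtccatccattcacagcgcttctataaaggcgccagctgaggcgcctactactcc
Nr4a1, chr15:101266596-101266845, plus strand: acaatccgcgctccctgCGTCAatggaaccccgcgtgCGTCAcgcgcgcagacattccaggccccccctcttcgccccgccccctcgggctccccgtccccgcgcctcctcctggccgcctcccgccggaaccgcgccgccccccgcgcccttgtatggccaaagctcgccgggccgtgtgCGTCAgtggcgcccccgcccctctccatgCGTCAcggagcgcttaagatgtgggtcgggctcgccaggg
Dusp1, chr17:26508473-26508722, minus strand: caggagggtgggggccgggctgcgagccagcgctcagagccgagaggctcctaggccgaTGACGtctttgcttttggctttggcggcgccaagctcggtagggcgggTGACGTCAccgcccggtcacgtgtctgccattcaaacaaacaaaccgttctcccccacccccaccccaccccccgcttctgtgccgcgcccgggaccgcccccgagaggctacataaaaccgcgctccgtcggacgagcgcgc
Btg2, chr1:134079156-134079405, minus strand: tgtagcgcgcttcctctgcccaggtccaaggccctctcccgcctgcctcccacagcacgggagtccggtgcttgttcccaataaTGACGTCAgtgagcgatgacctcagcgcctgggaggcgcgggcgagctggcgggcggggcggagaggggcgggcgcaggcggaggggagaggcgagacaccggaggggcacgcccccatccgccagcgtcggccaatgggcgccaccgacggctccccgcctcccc
Junb, chr8:84978749-84978998, minus strand: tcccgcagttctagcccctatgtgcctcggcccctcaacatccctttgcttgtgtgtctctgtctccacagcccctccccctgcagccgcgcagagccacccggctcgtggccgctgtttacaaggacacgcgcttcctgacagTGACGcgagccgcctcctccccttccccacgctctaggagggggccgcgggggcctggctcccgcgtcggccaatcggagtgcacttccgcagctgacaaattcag
All 5 windows held TGACG on one of the strands, as did 17.8% of 32851 RefSeq promoter windows of this length. The full palindrome TGACGTCA, which holds 2 overlapping copies of these letters, was found in the windows of Dusp1 and Btg2 and in 1.55% of all windows. The CArG box, to which serum response factor binds, was searched only as CCWWWWWWGG, with W for A or T. These exact letters were found in none of the 5 and in 1.47% of all windows. A match is a description of letters, and an absent match says nothing of sites outside the window or of sites with other letters.

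Fos, an AP-1 subunit (chr12:85473890-85477273, plus strand), ran from 10.8 over a median of 21.7 to 32.0 in mice that were not separated and from 5.37 over 8.39 to 23.6 in separated mice. The groups overlapped, with stress replicate 1 at the top of the separated mice and ethanol replicate 1 at the bottom of the others, and 4 of 6 separated mice lay below all mice that were not separated. The difference of Fos was -1.12 ± 0.34 (p = 0.00616, exact permutation p = 0.035). It was -1.19 between stress and control and -1.04 between ethanol + stress and ethanol mice.

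Dusp1, a phosphatase that switches off MAP kinases, had the smallest p of the list. Its values were 8.5, 11.1 and 13.8 as the lowest, median and highest of the mice that were not separated and 4.33, 6.93 and 9.81 in separated mice. In 5 of 6 separated mice Dusp1 was below all others, and only stress replicate 1 lay within their range. The difference was -0.66 ± 0.17 (p = 0.00212, exact permutation p = 0.01), with -0.64 in the arm without and -0.68 in the arm with ethanol. Dusp1 is also the only called member of the glucocorticoid-induced genes, described below, and it is the one called immediate early gene that stayed under the threshold in all 12 fits without 1 library.

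Nr4a1, an orphan nuclear receptor induced by activity, ran from 17.9 over 27.5 to 36.2 without and from 10.2 over 15.4 to 23.7 with separation (difference -0.75 ± 0.22, p = 0.00555, exact permutation p = 0.025). Junb, another AP-1 subunit, ran from 38.01 over 61.8 to 73.3 without and from 32.0 over 39.3 to 57.8 with separation (-0.54 ± 0.17, p = 0.00741, exact permutation p = 0.03). Btg2, an antiproliferative gene, ran from 9.50 over 16.0 to 17.7 without and from 9.33 over 10.1 to 14.6 with separation (-0.47 ± 0.14, p = 0.00580, exact permutation p = 0.03). In each of the 3 genes the groups overlapped, the highest separated mouse was stress replicate 1 and the lowest mouse that was not separated was ethanol replicate 1.

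**Figure D1:**
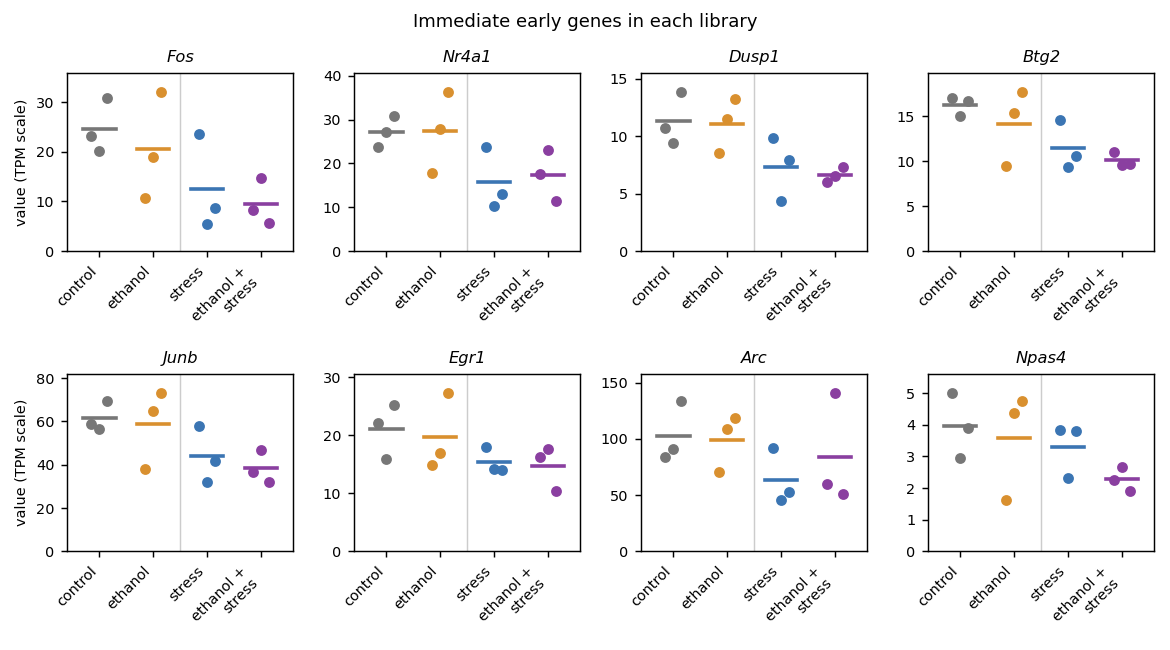
Values of 8 immediate early genes on the TPM scale (y axis, from 0) in each of 12 libraries (points), by group (x axis), with the group mean as a bar. The grey line parts mice that were not separated (left) from separated mice (right), and Fos, Nr4a1, Dusp1, Btg2 and Junb have lower means in both separated groups, while Arc reaches its highest value of 141 in an ethanol + stress mouse.

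The other members varied in size. Egr1 (-0.41 ± 0.17, p = 0.0323, exact permutation p = 0.075) and Egr4 (-0.32 ± 0.13, p = 0.0301, exact permutation p = 0.02), zinc finger transcription factors, were under 0.05 in the model but were not called. Arc, which acts on AMPA receptor trafficking, ran from 70.3 over 99.98 to 133.9 without and from 45.4 over 56.3 to 141 with separation. Its difference of -0.55 ± 0.26 (p = 0.0544, exact permutation p = 0.13) was as large as that of Junb, but ethanol + stress replicate 2 held the highest value of all mice. Npas4 had a difference of -0.34 ± 0.22 (p = 0.152, exact permutation p = 0.195) and Nr4a2 one of -0.39 ± 0.19, which was -0.79 in the arm without and 0.01 in the arm with ethanol. Jun, Egr3, Homer1, Fosl2 and Nr4a3 lay between -0.09 and 0.09.

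By mouse, 12 to 16 of the 17 members lay below the median of the mice that were not separated in each separated mouse. Among mice that were not separated this count was 0 in ethanol replicate 3, 2 in control replicate 3, 7 in control replicate 1, 10 in ethanol replicate 2, 15 in control replicate 2 and 17 in ethanol replicate 1. The levels of the list thus also varied widely between mice of the same treatment. By this count control replicate 2 lay within the range of the separated mice and ethanol replicate 1 beyond it.

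The number of called members rested on single libraries. It was 1 without control replicate 3, ethanol replicate 2 or 3, stress replicate 2 or 3 or ethanol + stress replicate 3, it was 2 without control replicate 1, 3 without control replicate 2 or ethanol + stress replicate 1, and 6 without ethanol replicate 1. The median difference stayed between -0.49 and -0.30 in all of these fits. Each arm alone called 1 member. Markers of the choroid plexus, the tissue of the ventricle that is easily taken along with the hippocampus, had a median difference of 1.06 in the same comparison. Of these 12 markers 0 were called, beside 0.464% of all genes. With their level as a covariate, an alternative chosen after seeing the data, 0 members were called, 6 were lower at an unadjusted p under 0.05, and the median was -0.33. Their part in the result was not tested further.

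**Figure D2:**
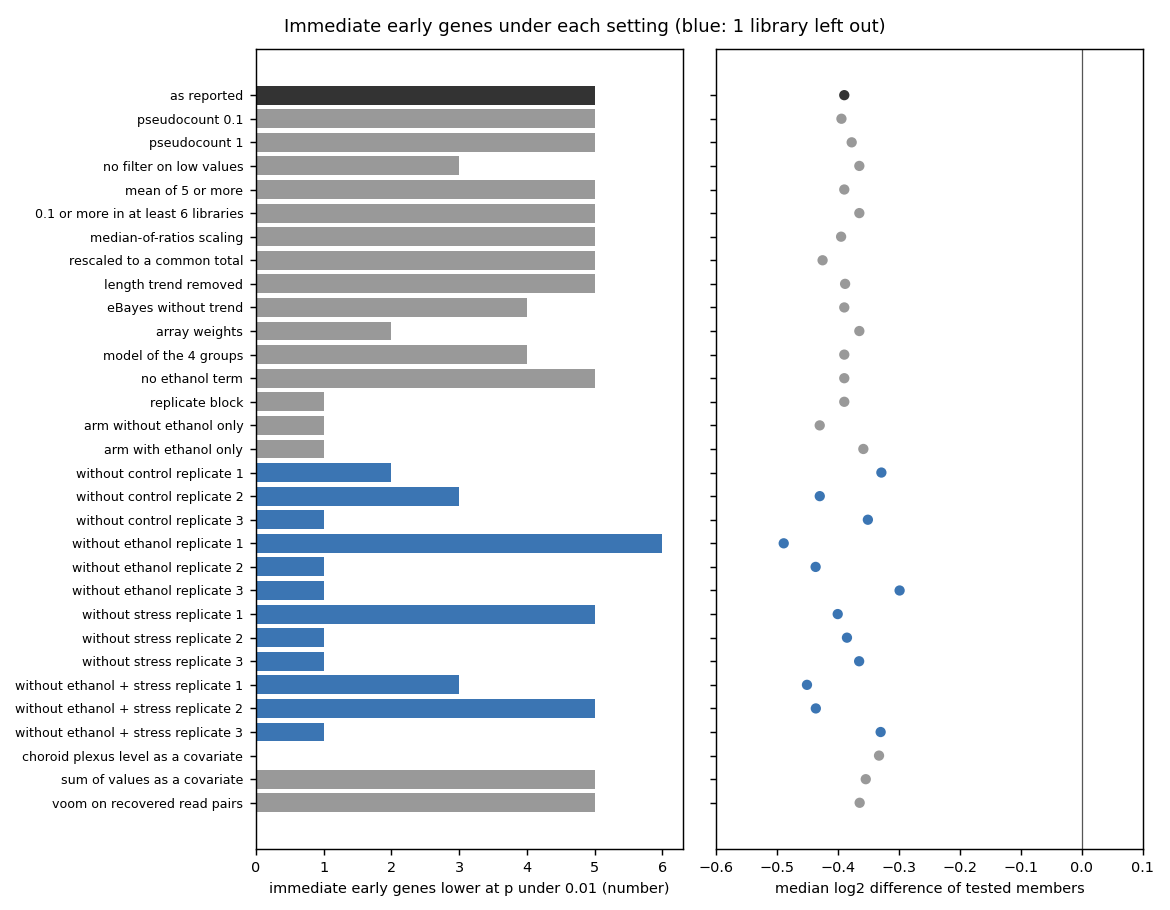
Number of immediate early genes called lower in separated mice (left, bars) and the median log2 difference of the tested members (right, points) under each setting (y axis), with the fits that leave out 1 library in blue. The count ranges from 0 to 6, while the median lies between -0.49 and -0.30 throughout.

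Of 33 other activity-regulated genes, looked up after the called genes had been seen, 5 were called lower (0.263% of all genes were) and 28 were not called, and 11 of the 33 were above 0. The called genes had been noticed first, so this count supports nothing. Ccn1, a secreted matricellular protein, ran from 2.89 over 5.48 to 6.48 without and from 1.96 over 2.51 to 3.88 with separation (-0.76 ± 0.18, p = 0.00111, exact permutation p = 0.005). Of separated mice 4 lay below all others, and only ethanol replicate 1 lay within the separated range. Csrnp1, a nuclear protein induced by growth signals, ran from 6.603 over 8.39 to 11.6 without and from 4.29 over 6.24 to 7.79 with separation, with 5 of 6 separated mice below all others. Its difference was -0.54 ± 0.13 (p = 0.00157, exact permutation p = 0.015), and -0.37 (p = 0.0110) on recovered read pairs, with an unadjusted p no longer under 0.01. Gadd45b, an activity-induced gene linked to DNA demethylation, ran from 18.3 over 19.7 to 25.0 without and from 9.69 over 15.3 to 19.1 with separation (-0.49 ± 0.15, p = 0.00666, exact permutation p = 0.01). It was called in 5 of 12 fits without 1 library, and on recovered read pairs it was -0.46, which was not called.

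The difference with the smallest p of any protein-coding gene was that of Cplx3, a complexin that binds the SNARE complex and regulates vesicle release (chr9:57599992-57606281, minus strand). Cplx3 ran from 6.14 over 8.54 to 9.23 in mice that were not separated and from 2.92 over 5.14 to 5.78 in separated mice. The groups did not overlap, and the lowest value was that of ethanol + stress replicate 3. The difference was -0.71 ± 0.13 (p = 0.000122, adjusted p = 0.880, exact permutation p = 0.005), with -0.59 in the arm without and -0.83 in the arm with ethanol. Cplx3 was called under every alternative run for genes, including each fit without 1 library (-0.77 to -0.61), each prenatal arm alone and the recovered read pairs, of which it had 61.9 to 169 per library. Neither of its 2 tested transcripts was called, and that with 55.6% of the sum differed by -0.40 ± 0.18, with groups that overlapped.

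Phf13, a PHD finger protein that reads methylated histone H3 (chr4:151989633-151996258, minus strand), was the next protein-coding gene. It ran from 6.03 over 7.12 to 7.74 without and from 5.08 over 5.19 to 5.38 with separation, so that the groups did not overlap and the separated mice were close together. The difference was -0.39 ± 0.08 (p = 0.000253, exact permutation p = 0.005), it was -0.42 on recovered read pairs, and it was not called in the arm without ethanol alone.

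The remaining protein-coding genes with the 10 smallest p values for lower levels were 4930469K13Rik, Pigz, Dll1, Krt77 and Csk beside Ccn1, Csrnp1 and Dusp1. 4930469K13Rik had a median of 2.57 without and 0.435 with separation (-1.46 ± 0.31, p = 0.000424, exact permutation p = 0.005), but rested on at most 7.57 read pairs per library and passed the filter on low values only through the mice that were not separated. Pigz, a mannosyltransferase of GPI anchors, ran from 11.9 to 15.1 without and from 7.84 to 11.3 with separation, without overlap. Dll1, a Notch ligand, ran from 5.29 to 7.998 without and from 2.96 to 5.13 with separation, also without overlap. On recovered read pairs the difference of Pigz was -0.13 instead of -0.43, that of Dll1 -0.24 instead of -0.54, and that of Csk, a kinase that restrains Src kinases, -0.02 instead of -0.43, and none of the 3 was called. For Csk a transcript with 21.5% of the sum had a mean of 6.68 ± 3.00 (SD, n = 6) without and 1.45 ± 2.26 (SD, n = 6) with separation. Of the 32 called genes named by the rule 16 were called on recovered read pairs, and 11 had a difference more than 1.5 times smaller there.

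Among the 10 protein-coding genes with the smallest p for higher levels in separated mice, H2-Ab1, the beta chain of an MHC class II molecule (chr17:34257689-34269419, plus strand), was the one whose groups did not overlap. H2-Ab1 ran from 0.982 over 1.67 to 2.11 without and from 2.48 over 2.75 to 3.23 with separation. The difference was 0.65 ± 0.15 (p = 0.000912, exact permutation p = 0.005), and 0.71 (p = 0.00349) on recovered read pairs, although these numbered only 7.98 to 28.9 per library. The transcript with 95.7% of the sum was not called and differed by 0.53 ± 0.21. The groups of this transcript overlapped, with stress replicate 2 at 1.33. Of the microglial markers 0 of 12 were called, beside 0.464% of all genes, and 11 were above 0, with a median of 0.13. Their summed level was 460 to 664 without and 516 to 752 with separation. Their part in the H2-Ab1 result was not tested.

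Fli1, an ETS transcription factor of blood and endothelial cells, ran from 2.75 over 3.01 to 3.40 without and from 3.33 over 3.92 to 4.83 with separation (0.36 ± 0.09, p = 0.00171, exact permutation p = 0.005). The overlap was small, and the 3 ethanol + stress mice were the highest. Sinhcaf, a subunit of the SIN3 histone deacetylase complex, ran from 2.78 over 4.71 to 8.79 without and from 3.97 over 10.7 to 15.2 with separation. Its 3 ethanol + stress mice stood above all others and its 3 stress mice lay within the range of mice that were not separated (0.83 ± 0.22, p = 0.00239, exact permutation p = 0.02). On recovered read pairs the difference of Sinhcaf was 0.42. A transcript not annotated as protein-coding held 61.5% of its sum, and the protein-coding one with 25.7% differed by 0.43 ± 0.21.

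Megf6, a protein of EGF-like repeats, had the smallest p among the protein-coding genes with higher levels, with a median of 1.97 without and 3.47 with separation (0.63 ± 0.14, p = 0.000522, exact permutation p = 0.01). On recovered read pairs its difference was 0.40, which was not called. Tfeb, a transcription factor of lysosomal genes, had medians of 5.97 and 7.54 (0.31 ± 0.09, p = 0.00444, exact permutation p = 0.005). Gm14403 (0.35), Dnajc12, a co-chaperone (0.34), Dusp11, an RNA phosphatase (0.37), Dus4l, a tRNA dihydrouridine synthase (0.48) and Alpk1, an alpha kinase (0.52), complete the genes with the 10 smallest p values for higher levels. The largest protein-coding transcripts of Gm14403, Dusp11 and Dus4l differed by 0.16, 0.08 and 0.07. A transcript not annotated as protein-coding differed by 0.72, 1.21 and 1.09 in these genes. For Dnajc12 the largest transcript, which is protein-coding, differed by 0.42. On recovered read pairs the differences of Tfeb, Dnajc12, Dusp11, Dus4l and Alpk1 were 0.22, 0.22, 0.13, 0.12 and 0.10, and none was called.

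**Figure D3:**
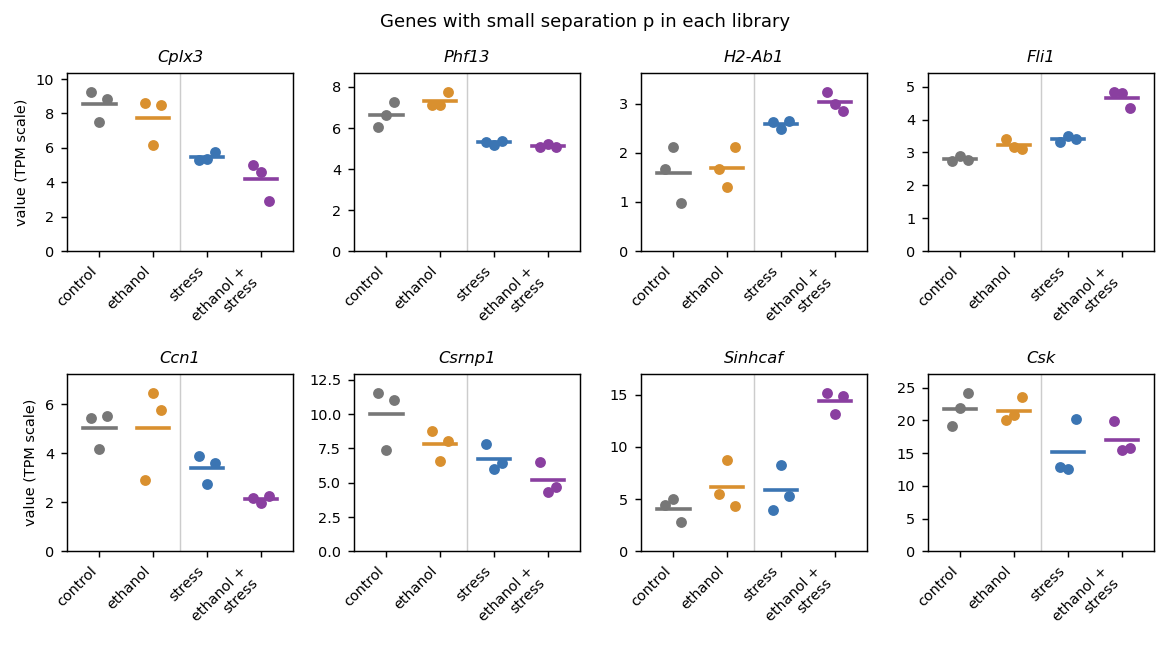
Values of 8 called genes on the TPM scale (y axis, from 0) in each of 12 libraries (points), by group (x axis), with the group mean as a bar. Cplx3 and Phf13 lie lower and H2-Ab1 higher in all 6 separated mice, whereas the groups overlap for Fli1, Ccn1, Csrnp1, Sinhcaf and Csk.

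Genes of other biotypes among the calls were mostly processed pseudogenes. Such genes can share reads with the gene they were copied from, which was not measured here, so their values are uncertain. Gm14269 had the smallest p of all genes (2.29 ± 0.40, p = 7.5e-05, adjusted p = 0.880, exact permutation p = 0.005) and was listed at 0 in 4 of 6 mice that were not separated and in none of the separated mice, from 1.14 to 5.86. Its libraries held at most 4.63 recovered read pairs. Its mean was 0.578 in mice that were not separated, so that it passed the filter on low values only through the group where it was high, and its rank is no support for a difference. Gm48848 was listed at 0 in all 6 separated mice and also in ethanol replicates 1 and 2, and ran from 7.94 to 12.8 in the other 4 mice, again with at most 5.17 read pairs (exact permutation p = 0.05). In the fit of the arm without ethanol alone it was the 1 gene past an adjusted p of 0.05 by limma (adjusted p = 0.000261), where all 3 stress mice are listed at 0, and it was not called in the arm with ethanol. As it passed the filter only through the mice that were not separated, and 3 listed zeros have no spread, this adjusted p supports nothing. Gm12397 and Gm43655 had the next smallest p values for higher levels, and Gm12902 and Gm10025 for lower levels, and of these 4 only Gm12397 was called on recovered read pairs. Gm15613, Gm49511 and Zfp783 were also called higher. Gm43655, Gm12902 and Gm49511 likewise had a mean under 1 in the group where they were low.

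Genes of the hypothalamic-pituitary-adrenal axis were not called. In the list of corticosteroid receptors and the CRH system, 0 of 15 tested members were called, beside 0.464% of all genes, and none was under 0.05, 10 were above 0, and the median was 0.02. The glucocorticoid receptor Nr3c1 ran from 45.2 over 49.7 to 55.1 without and from 45.5 over 51.3 to 55.2 with separation (0.02 ± 0.06, p = 0.726, exact permutation p = 0.63). The mineralocorticoid receptor Nr3c2 had medians of 88.5 and 94.2 (0.02 ± 0.09, p = 0.861, exact permutation p = 0.86). Rescaling to a common total turned the differences of Nr3c1, Nr3c2 and Crhr1 negative (-0.01, -0.02 and -0.01), but moved the median of all genes to -0.03 as well, and relative to it the 3 receptors did not turn. Crh, a peptide of interneurons in the hippocampus, was 0.10 ± 0.16 and its receptor Crhr1 0.02 ± 0.14.

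Of 22 genes induced by glucocorticoids, 1 was called, which was Dusp1 and lower (0.263% of all genes were called lower), 16 were above 0, and the median was 0.06. The cochaperone Fkbp5, which limits receptor activity, ran from 25.7 over 27.2 to 31.9 without and from 26.1 over 28.4 to 38.5 with separation (0.12 ± 0.11, p = 0.268, exact permutation p = 0.31). Sgk1, a kinase, was 0.28 ± 0.20 (p = 0.184, exact permutation p = 0.235), with -0.13 in the arm without and 0.69 in the arm with ethanol. Tsc22d3 was 0.08 ± 0.14. Cebpd, a transcription factor, was 0.30 ± 0.13 (p = 0.0380, exact permutation p = 0.06) and the only member with higher levels at an unadjusted p under 0.05, beside 1.65% of all genes. Bdnf, of the neurotrophin list with 0 of 9 called and a median of 0.01, had medians of 20.5 and 19.9 (0.06 ± 0.12, p = 0.610, exact permutation p = 0.635), and the smallest p of that list was that of the neuropeptide precursor Vgf (-0.26 ± 0.19).

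The remaining pathway lists held 2 called genes, both lower, beside 0.263% of all genes. Of 40 histone methylation enzymes 1 was called lower, Kmt2e of the SET domain family, with medians of 29.5 and 24.2 (-0.23 ± 0.07, p = 0.00633, exact permutation p = 0.015), and its difference was -0.09 (p = 0.220) on recovered read pairs. Gadd45b was the 1 of 16 genes of DNA methylation that was called, 14 of them were below 0, and the median was -0.04. None was called of 15 ionotropic glutamate receptor subunits (median -0.07, 13 below 0, smallest p for Gria4), 12 GABA-A receptor subunits (-0.04) or 20 monoamine receptors (-0.04, Drd1). None was called of 35 cytokine and chemokine genes and receptors (0.06, 28 above 0, Ccl25), 21 interferon response genes (-0.01, Usp18), 19 clock genes (-0.01, Cry2), 13 mitochondrially encoded genes (0.10, mt-Atp6) or 25 chaperones (-0.01, Bag3).

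Markers of hippocampal cells were present in all mice, and none of the 15 marker lists had a called member, where 0.464% of all genes were called. For dentate granule cells 5 of 8 markers were above 0 (median 0.05), with Prox1, the transcription factor that defines these cells, at 0.24 ± 0.10 (p = 0.0282, exact permutation p = 0.02). The medians of the lists of CA1 pyramidal cells (-0.11, smallest p for Mpped1), CA2 and CA3 pyramidal cells (0.09, Iyd), interneurons (-0.05, Reln) and adult neurogenesis (0.04, Dcx) lay between -0.11 and 0.09. Astrocytes (0.05, Fgfr3), microglia (0.13, Tmem119) and mature oligodendrocytes (0.13, Mal) each had 11 of 12 markers above 0. Precursors of oligodendrocytes (0.01, C1ql1), endothelial cells and pericytes (-0.01, Slc2a1), thalamus (0.04, Zic1), striatum (0.02, Ppp1r1b) and meninges (0.02, Igf2) lay near 0.

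The choroid plexus list had 0 of 12 markers called, beside 0.464% of all genes. It had the largest median of all lists, 1.06, with 12 of 12 markers above 0. Its summed level ran from 156 over 1269 to 4203 without and from 363 over 2597 to 8008 with separation, so the groups overlapped. Otx2 had the smallest p (p = 0.0346, exact permutation p = 0.085), and Ttr, transthyretin, ran from 30.0 to 3424 without and from 191 to 7089 with separation. Markers of blood were above 0 in 5 of 5 tested (median 0.28, Hbb-bt 0.35 ± 0.23), with sums of 1603 to 6816 without and 2455 to 6481 with separation. Hormones of the pituitary, looked up after values had been seen, had a median of -1.06. Of 4 tested genes 0 were called, beside 0.464% of all genes. Growth hormone, Gh, ran from 0.182 to 200.5 without and from 0 to 48.1 with separation, and its highest values were those of ethanol replicates 3 and 1 and control replicate 2. Whether the amount of these tissues in a dissection bears on other genes was not tested, beyond the fit with the choroid plexus level.

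**Figure D4:**
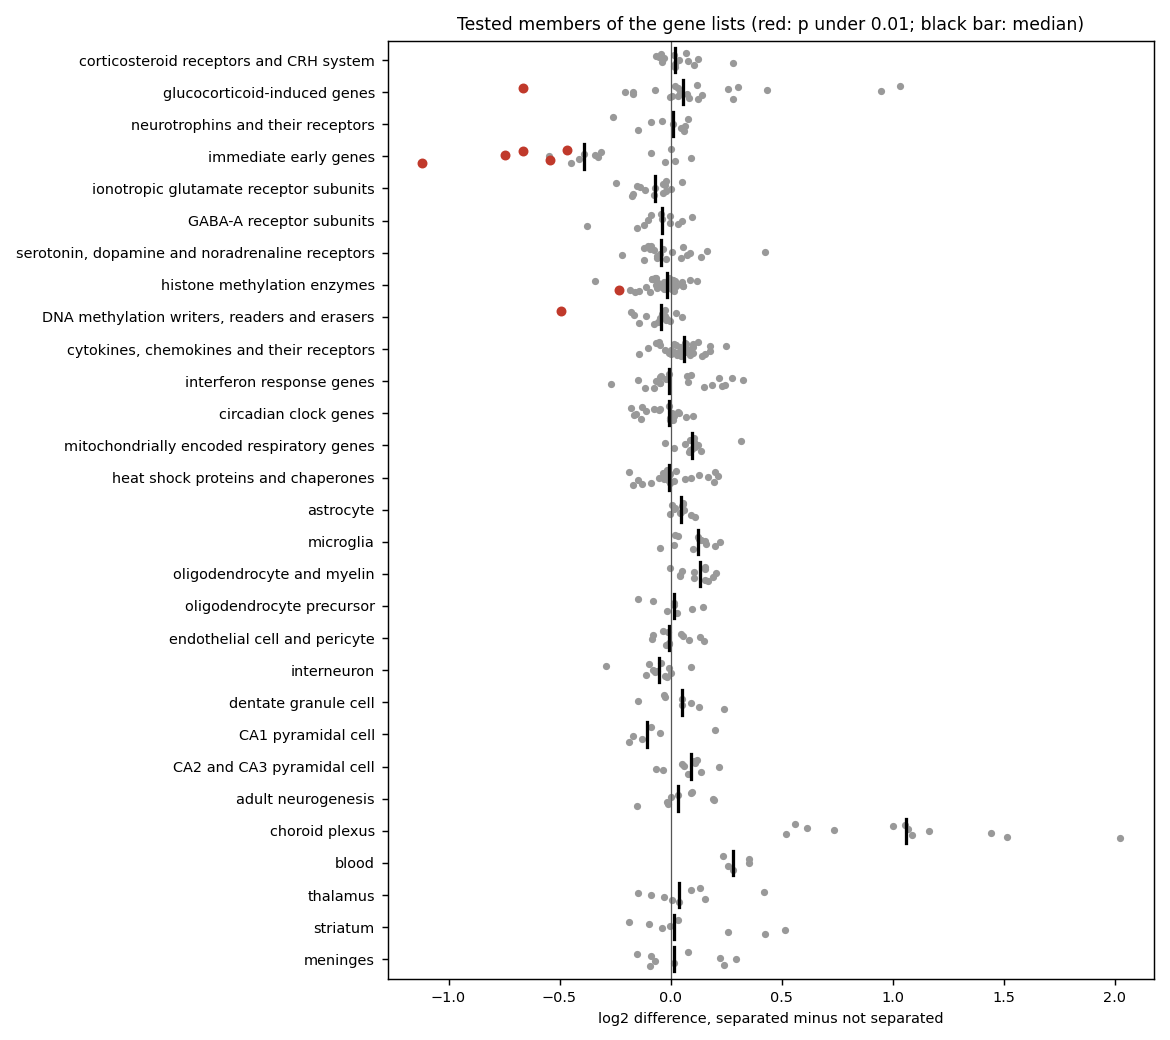
Log2 difference of separated minus not separated mice (x axis) for the tested members (points) of 29 lists of pathway genes and cell type markers (y axis), with called members in red and the median of each list as a black bar. Of the immediate early genes 14 of 17 lie to the left of 0 and 5 are called, the 12 choroid plexus markers lie to the right with none called, and most other medians lie within 0.15 of 0.

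The same comparison was made within each prenatal arm, which share no mice. Between stress and control mice 75 genes were called (0.519%), and 43 of them (57.3%) had the same sign between ethanol + stress and ethanol mice. Between ethanol + stress and ethanol mice 47 genes were called (0.325%), and 26 of them (55.3%) had the same sign in the other arm. Of all tested genes 56.1% had the same sign in both arms, and 1 gene was called in both with the same sign, which was Cplx3. Across genes, which are not independent replicates, the differences of the arms had a Pearson r of 0.103 and a Spearman rho of 0.143. The interaction of separation and ethanol had an unadjusted p under 0.01 for 45 genes (0.311%). Of the immediate early genes, 16 of 17 were below 0 in the arm without and 11 of 17 in the arm with ethanol.

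**Figure D5:**
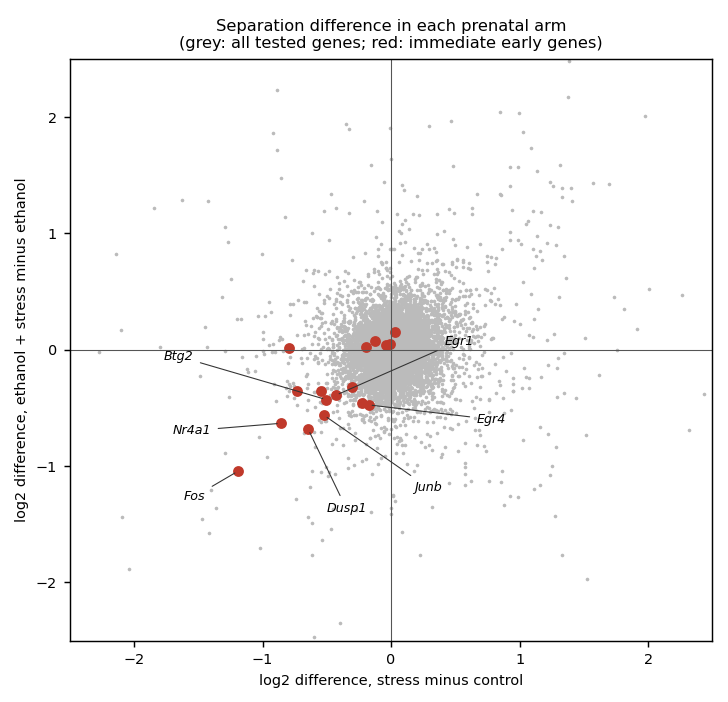
Log2 difference between stress and control mice (x axis) against that between ethanol + stress and ethanol mice (y axis) for each tested gene (grey) and the immediate early genes (red, named at an unadjusted p under 0.05), with 30 genes outside the plotted range. The cloud of all genes shows little relation between the arms, with r of 0.103, and Fos, Nr4a1, Dusp1, Junb and Btg2 lie at the lower left.

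At the level of single transcripts, 35756 were tested and 232 were called (0.649%), 106 higher and 126 lower in separated mice, where 358 would be called by chance. None passed 0.05 after adjustment by limma, the lowest adjusted p was 0.999, and 1242 had an unadjusted p under 0.05 (3.47%). The calls fell in 227 genes, and 18 of the 67 called genes had a called transcript, in each case in the direction of the gene. A value of 0 in at least 1 library was found in 46.6% of called and 19.7% of all tested transcripts, and a listed 0 can be a failed estimate where read pairs are divided among isoforms. All 6 separated mice lay above all others in 22 transcripts (0.0615%) and below them in 25 (0.0699%). In 4 genes, Hspa8, Rapgef3, Inpp5f and Wnk1, transcripts were called in both directions.

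Of the 10 transcripts with the 5 smallest p values in each direction, 9 held 1.28% to 25.2% of genes whose sum was not called, and the other is the single transcript of Gm14269, described above. The transcripts of Stmn2, Rpl27, Erc1, Tspan5, Pold1 and Gm14269 had a mean under 1 in one of the groups and passed the filter only through the group where they were high, so their p values are no support for a difference. A 308-base transcript of Stmn2, a neuronal regulator of microtubules, was listed at 0 in 5 of 6 mice that were not separated and ran from 2.41 to 9.41 in separated mice, but held 1.28% of the gene, whose difference was -0.04 ± 0.05. For Ergic3 the transcript with 1.76% of the gene ran from 0.880 to 1.64 without and from 1.97 to 6.38 with separation and did not overlap, while the gene differed by 0.03 ± 0.08. The Pfdn5 transcript of 464 bases, which encodes a prefoldin subunit, ran from 4.14 to 6.72 without and from 6.92 to 12.5 with separation, again without overlap. Its share of the gene was 1.78%. A transcript of Rpl27, a ribosomal protein, was listed at 0 in 5 of 6 mice that were not separated.

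Among lower transcripts, a 12-exon transcript of Erc1, a scaffold protein of the presynaptic active zone, ran from 1.30 to 2.71 without and from 0 to 0.798 with separation and did not overlap. It held 5.70% of the gene, which differed by -0.13 ± 0.07. Transcripts of Tspan5, a tetraspanin, and Pold1, the catalytic subunit of DNA polymerase delta, were listed at 0 in 5 and 4 of 6 separated mice and in none of the others. The transcripts of Inpp5f, a phosphoinositide phosphatase (-0.84 ± 0.18), and Hddc3 (-0.40 ± 0.09) were above 0 in all 12 mice, and the sums of both genes differed by 0.04 ± 0.06 and 0.00 ± 0.09.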

How the data were processed

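RNA-Seq of the hippocampus of 12 male mice was used, with 3 in each of 4 groups. The deposited values are a signal made by the authors: rRNA was removed, stranded libraries were sequenced from both ends, reads were assigned with kallisto to mouse transcripts (GRCm38, or mm10 in the submitters' processing notes, which also name sleuth), and TPM were scaled between libraries. Tool versions are not given in the sources used here. TPM were assumed in the test plan, and as sums differ between libraries the values were treated as a signal on that scale, with the same test.

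Of 115270 transcripts, 113580 were matched to GENCODE vM21 of the same build and summed per gene. Features with a mean of 1 or more were tested as log2(value + 0.5) with limma 3.58.1 in R 4.3.3 (lmFit, eBayes with trend), with separation and prenatal ethanol as terms, and tables and plots were made with Python 3.11.15. A step worth 1 read pair, found from low values, gave 12103000 to 15033000 read pairs, and 78.1% to 83.0% of low values lay within 0.1 of a whole number. Read pairs were used only for an added alternative and as depth, which covers counting error only.

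Named genes are the 10 called protein-coding genes with the smallest p in each direction, called members of the lists or else the member with the smallest p, 8 genes of stress hormones and Bdnf, 5 transcripts and up to 3 genes of other biotypes in each direction. Ttr, Gh, Cebpd, Hspa8, Rapgef3, Wnk1, Gm15613, Gm49511, Zfp783 and the immediate early genes that were not called were named after their values were seen, and 1 gene that the rule named is not reported here. The members and lists were chosen with earlier results of these data known. The model was tested on simulated data. Same-numbered replicates of different groups correlated between -0.21 and 0.20 in their deviations from the group means, and 2 of 18 pairs were over 0.1, so numbers were not used as pairs. Alternatives were other pseudocounts, filters, scalings, model terms, weights, arms and leaving out each library. Promoter windows are those of RefSeq for GRCm38.p6.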

Additional observations from a re-analysis of the deposited data

Results flagged for a closer look

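Of 180 groups of 6 libraries that were tested for a library far from the others, 18 held one, where 1 in 20 would be 9. The groups share the same 12 libraries and some hold listed zeros. The 9 is therefore no exact expectation, and the count is a description only. Among mice that were not separated, ethanol replicate 1 stood apart for Btg2 at 9.50, below the next value of 15.03, for Dusp11 at 17.7, for Ppp1r1b at 44.3 and for the summed dentate granule cell markers at 185. Ethanol replicate 2 stood apart for Megf6 at 1.35, Dus4l at 7.79, Hbb-bt at 398, the summed blood markers at 6816 and the transcripts of Stmn2 at 2.78 and Rpl27 at 2.48, whose other values in that group were 0. Ethanol replicate 3 had the lowest sum of oligodendrocyte and myelin markers, 3188, where the next was 4977.

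Among separated mice, stress replicate 1 stood apart for Btg2 at 14.6, where the next value was 11.05, for Zic1 at 16.1 and for the summed interneuron markers at 1924. Ethanol + stress replicate 2 stood apart for Gm10025 at 0.925, Cry2 at 30.8 and Hbb-bt at 426, and ethanol + stress replicate 3 for the Tspan5 transcript at 2.08, where the others were 0.

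The difference between prenatal arms was tested as an interaction for the named genes and had an unadjusted p under 0.01 for Tmem119, a microglial gene. Its separation difference was 0.54 larger in the arm with ethanol (0.47) than in the arm without (-0.07) and was not significant after adjustment over all genes.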

How the results depend on the processing

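The number of genes called was 136 with no filter on low values, 40 with a mean of 5 or more, 103 with 0.1 or more in at least 6 libraries, 119 with array weights, 112 with the sum of values as a covariate, 44 with voom on recovered read pairs, 425 at an unadjusted p under 0.05 and 10 where the groups also did not overlap. Without 1 library it was 44 to 93, of which 37.1% to 63.4% were higher in separated mice, and in the arm without ethanol 69.3% of calls were higher. Genes under an adjusted p of 0.05 numbered 1 in the arm without ethanol, 2 in the arm with ethanol and 0 in every other fit. Transcripts called numbered 689 with no filter, 55 with a mean of 5 or more, 563 with 0.1 or more in at least 6 libraries, 1242 at an unadjusted p under 0.05 and 33 where the groups also did not overlap, and 2 passed an adjusted p of 0.05 with 0.1 or more in at least 6 libraries and also in the arm without ethanol. Without 1 library 0 to 2 did, the 2 being without ethanol replicate 2. Immediate early genes called lower numbered 3 with no filter, 2 with array weights, 1 in each arm alone, 0 with the choroid plexus level as a covariate and 1 to 6 without 1 library. With a replicate block the replicate numbers gave 71 genes called, and 1 of the immediate early genes, but the numbers do not pair the mice, since 2 of 18 pairs correlated over 0.1. The covariates and the read pairs were chosen after seeing the data, and the cause of these changes was not tested.

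Of 42 called genes and transcripts named by the rule, none changed sign under any alternative run for it, and 29 stayed under the threshold in all 12 fits without 1 library. All were called in these same libraries, so a kept sign is a description and no support. The 29 include the features said above to have passed the filter only through the group where they were high. Of 33 named genes that were not called, 4 passed the threshold in some setting, and several changed sign. Some of these had differences near 0, but others, such as Usp18 (0.33), Reln (-0.29) and Sgk1 (0.28), changed sign in 1 prenatal arm. With values rescaled to a common total, which moved the median of all genes to -0.03, the differences of Nr3c1, Nr3c2 and Crhr1 were -0.015, -0.019 and -0.013. In the arm without ethanol they were -0.071 for Tmem119, -0.0085 for Usp18, -0.13 for Sgk1, 0.025 for Reln, -0.056 for Crh, -0.13 for Tsc22d3 and -0.054 for Bdnf. In the arm with ethanol they were 0.026 for Bag3, -0.0093 for Nr3c1, -0.0080 for Nr3c2 and -0.14 for Crhr1. On recovered read pairs they were -0.039 for Nr3c1 and -0.013 for Nr3c2. Without 1 library they ran from -0.0053 to 0.043 for Nr3c1, -0.039 to 0.069 for Nr3c2, -0.058 to 0.11 for Crhr1, -0.026 to 0.12 for Bdnf and -0.0083 to 0.15 for Tsc22d3.

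Gm14269, Gm48848 and 4930469K13Rik rest on few read pairs, which limits their precision, and several named transcripts hold listed zeros. The same holds for Gm43655, Gm12902 and Gm10025, with at most 2.46, 3.39 and 7.57 read pairs per library.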

Other observations

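Other activity-regulated genes were looked up after the values of the called genes had been seen, so the counts are a description only. Of 33 such genes tested, 5 were called lower (0.263% of all genes were) and 0 higher, namely Ccn1, Csrnp1, Gadd45b, Nab2 and Rnd1, and these had been noticed first. Nab2, a corepressor of Egr factors, had a difference of -0.27 ± 0.09 and Rnd1, a small GTPase, one of -0.35 ± 0.12. Of the 28 others, 17 were below 0, 2 were lower at an unadjusted p under 0.05, which were Sik1 (-0.29) and Pcsk1 (-0.23), 0 were higher at that p, and the median was -0.05. In all, 11 of the 33 were above 0, with the largest differences for Inhba (0.19) and Klf4 (0.17).

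Of the MHC class II genes other than H2-Ab1, also looked up later, none was called. H2-Aa was at 0.07 ± 0.17, H2-Eb1 at -0.04 ± 0.17 and Cd74, the invariant chain, at 0.18 ± 0.17. Cplx3 was set beside genes of deep cortical and Lamp5 neurons in the same way. Lamp5 was at 0.00 ± 0.10, Ndnf at 0.18 ± 0.13, Moxd1 at -0.18 ± 0.15 and Ccn2 at -0.31 ± 0.17, and none of them was called.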
